A study of Mus musculus with 4 samples.

Results

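Transforming growth factor beta (TGF-beta) signalling and myofibroblast genes were followed in the urogenital sinus (UGS), the embryonic tissue that gives rise to the prostate, bladder neck and urethra, of wild type and *Tbx18*-deficient male mice. The 10 genes were taken by name from the deposited expression matrix of 25819 rows, and all 10 had 1 row each: the ligands *Tgfb1*, *Tgfb2* and *Tgfb3*, the receptors *Tgfbr1*, *Tgfbr2* and *Tgfbr3*, the feedback inhibitor *Smad7*, and *Tgfbi*, *Ctgf* and *Postn*, which encode matrix or matricellular proteins. The rule used no expression value, although earlier results of these data were known when the genes were chosen. Whole UGS of male embryos on a B6C3-F1 hybrid background were collected at E16.5 and E18.5, from wild type littermates and from embryos with 2 copies of the *Tbx18Gfp* allele, in which a GFP knock-in disrupts the T-box transcription factor gene *Tbx18* in every cell. RNA of 3 embryos was pooled for each library, and there was 1 library per genotype and stage: wild type and *Tbx18Gfp/Gfp* (here also called mutant) at E16.5, and the same genotypes at E18.5. No replicate check is therefore possible, and no SD, test or p-value between groups is given. In RNA of a whole organ, fewer cells of a type and less RNA per cell cannot be told apart.

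TGF-beta ligands are secreted in a latent complex bound to the matrix, and the released ligand is bound by the type II receptor, which phosphorylates the type I receptor. The active type I receptor phosphorylates SMAD proteins that enter the nucleus with SMAD4 and regulate target genes, and SMAD7, itself induced by the pathway, blocks the type I receptor. In mesenchyme the pathway is known for inducing matrix proteins and the contractile proteins of myofibroblasts, which are fibroblasts with smooth muscle actin, and in the developing prostate it is known for restraining epithelial growth.

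Promoter sequence was at hand for 6 of the 10 genes, as 8 RefSeq windows (GRCm38.p6) that run from 250 bases before to 50 bases after an annotated start. The 250 upstream bases are shown for 2 ligands whose transcripts have high and lower GC content and for *Tgfbi*. These genes were chosen because their ratios in the E18.5 pair shift differently once a trend on transcript GC content and length is removed. That trend does not use the promoter sequence. Capitals mark CAGAC or its reverse complement GTCTG, a short SMAD element, and each sequence reads 5′ to 3′ on the strand of the gene.
*Tgfb1*, chr7:25686752-25687001, plus strand: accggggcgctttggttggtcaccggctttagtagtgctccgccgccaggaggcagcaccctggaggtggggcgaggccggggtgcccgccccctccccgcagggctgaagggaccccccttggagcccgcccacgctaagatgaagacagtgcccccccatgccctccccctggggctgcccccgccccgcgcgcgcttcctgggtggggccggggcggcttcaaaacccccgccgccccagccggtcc
*Tgfb2*, chr1:186705990-186706239, minus strand: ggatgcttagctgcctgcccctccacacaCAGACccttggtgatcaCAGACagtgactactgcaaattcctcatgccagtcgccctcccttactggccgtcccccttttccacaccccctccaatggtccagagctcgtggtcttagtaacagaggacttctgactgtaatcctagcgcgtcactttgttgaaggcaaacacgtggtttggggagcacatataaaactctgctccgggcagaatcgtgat
*Tgfbi*, chr13:56609336-56609585, plus strand: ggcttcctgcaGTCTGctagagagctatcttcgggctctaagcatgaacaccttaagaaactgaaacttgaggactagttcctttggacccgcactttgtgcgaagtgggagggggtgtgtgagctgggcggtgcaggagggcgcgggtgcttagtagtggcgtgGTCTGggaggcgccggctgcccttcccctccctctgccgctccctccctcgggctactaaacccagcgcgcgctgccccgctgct

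GC content of the 300-base windows was 77.0% for *Tgfb1*, 54.3% for *Tgfb2* and 63.3% for *Tgfbi*. The SMAD element stood at positions -221 and -204 from the start in *Tgfb2* and at -239 and -85 in *Tgfbi*, and was not in the *Tgfb1* window. It was present in 5 of the 8 windows of these genes, against 49.6% of 32851 windows of the same length. Searched on both strands, the T-box element GGTGTGA (3.98% of all windows), the TEAD element CATTCC (14.7%) and the CArG box (1.63%) were in none of the 8. No match overlapped another, and absence says only that these letters are not in these windows.

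The E18.5 wild type library stood apart from the other 3. The deposited values are FPKM, the number of fragments scaled to transcript length and to mapped reads, and from the FPKM of single reads on olfactory receptor genes the depth was estimated as 29000000 reads in that library and 52400000 to 64000000 reads in the others. Of the pairs without it, E16.5 mutant over E16.5 wild type had a median log2 ratio of 0.01 over all genes that reached 1 FPKM in each library of the pair, and the median was -0.06 between the 2 mutant libraries. In the pairs with it, the medians were 0.29 for E18.5 mutant over wild type and -0.33 for E18.5 over E16.5 wild type, and ratios moved with the GC content of the transcript (Spearman's rho over genes, which share their libraries, of 0.443 and -0.501). Without it, rho was 0.0226 for the E16.5 pair, -0.226 between the 2 mutant libraries and -0.184 for E18.5 mutant over E16.5 wild type. Ratios with the E18.5 wild type library were therefore also computed centred on the median over all genes, and after subtraction of a trend on GC content and length of the transcript. A single value is as deposited. *Hoxd13*, which marks the position of the UGS, had 36.8 to 67.4 FPKM, and none of the epithelial, urothelial and mesenchymal markers listed for the UGS was at 0. *Tbx18* had 2.50 to 3.47 FPKM. Reads from the targeted locus may still count towards the gene, so this value does not check the labels. Read numbers are estimates that rest on these depths, and 95% intervals on ratios cover counting error only.

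*Postn*, which encodes the matricellular protein periostin, was the highest of the 10 genes in each library, with 117 to 183 FPKM, and *Smad7* and *Tgfb1* were the lowest, with 5.24 to 8.51 and 6.21 to 8.60 FPKM. By their medians over the 4 libraries the genes followed in the order *Postn* (147 FPKM), *Tgfbi* (54.9 FPKM), *Tgfb3* (29.2 FPKM), *Tgfbr1* (25.0 FPKM), *Tgfbr2* (24.4 FPKM), *Tgfb2* (19.8 FPKM), *Ctgf* (12.7 FPKM), *Tgfbr3* (10.4 FPKM), *Tgfb1* (7.94 FPKM) and *Smad7* (7.30 FPKM). The ranges of neighbours did not overlap between *Postn* and *Tgfbi*, between *Tgfbi* and *Tgfb3*, and between *Tgfbr3* and *Tgfb1*, and all other neighbours overlapped. As deposited, the highest and the lowest library of a gene lay closest together for *Tgfbr1*, with 0.14 on the log2 scale, and farthest apart for *Ctgf*, with 1.22.

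**Figure D1:**
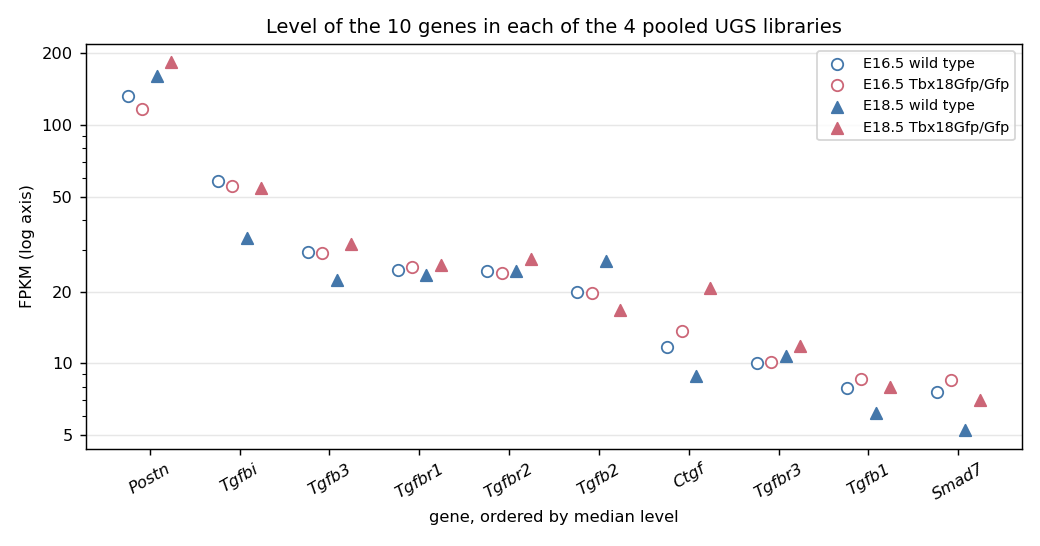
FPKM (log axis) of the 10 genes in the 4 libraries, 1 point per library of RNA pooled from 3 embryos, with no error bars because there were no replicates. *Postn* lies above and *Smad7* and *Tgfb1* lie at the bottom in every library, and the points of the receptors nearly coincide while those of *Ctgf* spread from 8.85 to 20.7 FPKM.

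At E16.5, none of the 10 genes differed by 1.5-fold between *Tbx18Gfp/Gfp* and wild type UGS, a size of difference that 4.15% of the 14761 genes reaching 1 FPKM in at least 1 library of the pair had. *Ctgf*, which encodes connective tissue growth factor, had the highest ratio, with a log2 ratio of 0.21 (0.12 to 0.31) from 11.8 to 13.6 FPKM. *Postn* had the lowest, with -0.18 (-0.21 to -0.15) from 132 to 117 FPKM. Of the 10 genes 5 were higher and 5 lower, with a median log2 ratio of -0.00195, as deposited. *Tgfb2* and *Tgfb3* were nearly level in the pair, with log2 ratios of -0.01 (-0.07 to 0.04) each, *Tgfb1* had 0.12 (-0.01 to 0.25) and *Smad7* 0.17 (0.08 to 0.26). The receptor ratios of -0.02 to 0.04 took the other sign under at least 1 other scaling of the libraries.

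At E18.5, 3 of the 10 genes passed 1.5-fold between mutant and wild type UGS, *Ctgf* and *Tgfbi* higher and *Tgfb2* lower, where 33.2% of 14733 genes were higher, 7.6% lower and 40.8% either by that size. *Ctgf* alone passed 2-fold as deposited, which 15.1% of genes did upwards. Under the 4 other scalings *Ctgf* was below 2-fold, and with equal library sums *Tgfb2* passed it downwards (log2 -1.105), which 7.83% of all genes did. Of the 10 genes 9 were higher in the mutant as deposited, and after centring 5 were higher and 5 lower. The ratios of *Tgfb2*, *Tgfb3*, *Tgfbi* and *Ctgf* kept their sign under each scaling, and those of the other 6 took the other sign under at least 1.

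**Figure D2:**
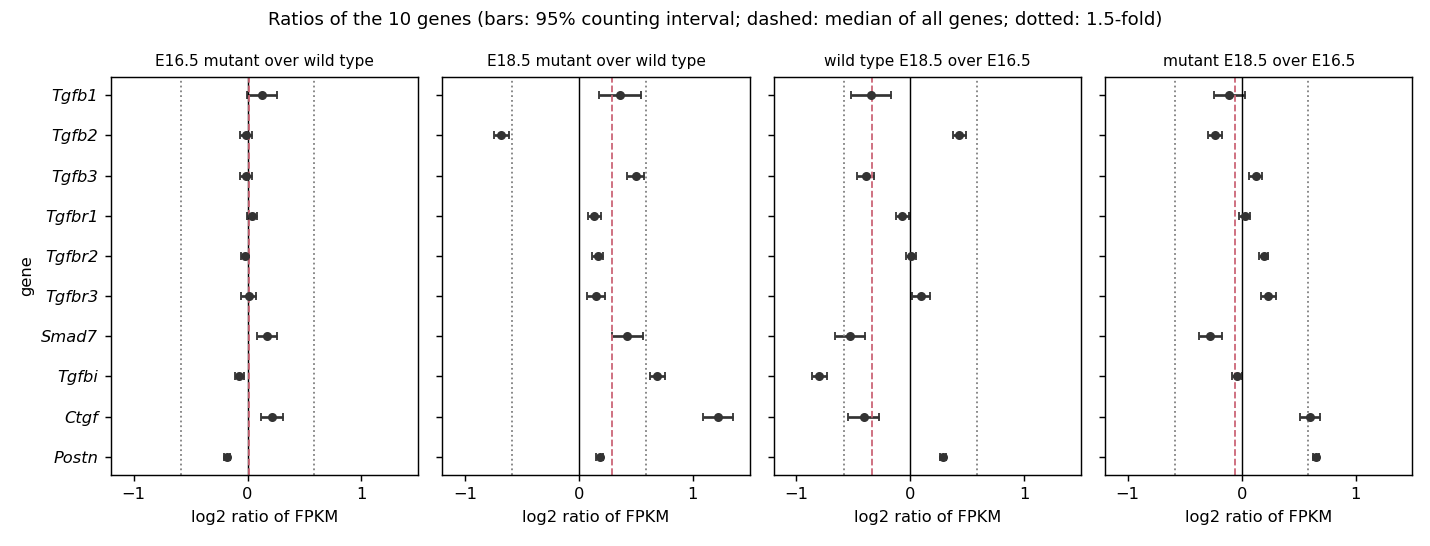
Log2 ratio of FPKM for the 10 genes in the 4 pairs of libraries, with 95% intervals for counting error only and the median of all genes as a reference. No gene passes 1.5-fold (dotted lines) at E16.5, and at E18.5 *Ctgf* and *Tgfbi* lie above and *Tgfb2* below those lines.

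Among the ligands, *Tgfb2* (chromosome 1, 188447065 to 188529871 in the deposited table), whose protein acts in epithelial and mesenchymal development, had 19.9 FPKM in wild type against 19.7 FPKM in mutant UGS at E16.5, then 26.8 against 16.7 FPKM at E18.5. The E18.5 wild type library was the highest of the 4, and the E18.5 mutant the lowest. The E18.5 ratio was 0.624 (log2 -0.68, -0.74 to -0.62), -0.97 centred on the median and -0.74 with the trend subtracted. Of all genes, 5.88% had a ratio as low as deposited, and 9.83% with the trend subtracted. Over E16.5 wild type, the E18.5 mutant had a log2 ratio of -0.25 for *Tgfb2*.

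*Tgfb3* (chromosome 12, 87397693 to 87419991), the most abundant ligand in 3 of the libraries, had 29.4, 29.1, 22.4 and 31.7 FPKM in the order E16.5 wild type, E16.5 mutant, E18.5 wild type, E18.5 mutant, which holds for all lists of 4 values. E18.5 wild type was the lowest and the other 3 lay close together. Its E18.5 log2 ratio of 0.50 (0.43 to 0.57) became 0.21 after centring and 0.05 with the trend subtracted. *Tgfb1* (chromosome 7, 26472021 to 26490015), the least abundant ligand, had 7.89, 8.60, 6.21 and 7.98 FPKM, the lowest again in E18.5 wild type. Its transcript has the highest GC content of the 10 genes, 62.5%, and its E18.5 log2 ratio of 0.36 (0.18 to 0.55) became 0.07 after centring and -0.63 with the trend subtracted.

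A ratio of 2 genes within a library does not depend on the scaling between libraries. The sum of the 3 ligands, which does depend on it, was 57.2, 57.4, 55.4 and 56.4 FPKM as deposited, and the shares within the sum differed between libraries. *Tgfb2* gave 34.8%, 34.3%, 48.4% and 29.7% of the sum, and *Tgfb3* 51.4%, 50.7%, 40.4% and 56.2%. E18.5 wild type was the 1 library in which *Tgfb2* exceeded *Tgfb3*, with a ratio of 1.2 against 0.677, 0.677 and 0.528. From wild type to mutant at E18.5 that ratio differed by a log2 of -1.18 (-1.28 to -1.09), and by -0.79 with the trend subtracted from both genes. *Tgfb2* over *Tgfb1* differed by -1.04 (-1.24 to -0.85) as deposited but by -0.12 with the trend subtracted, where the GC contents of the transcripts are 46.9% and 62.5%.

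The receptors lay close together in the 4 libraries as deposited. *Tgfbr1* (chromosome 4, 47366177 to 47427796), the type I receptor kinase, had 24.6, 25.3, 23.5 and 25.8 FPKM, and *Tgfbr2* (chromosome 9, 115996813 to 116084481), the type II kinase that binds ligand, had 24.3, 24.0, 24.4 and 27.4 FPKM. *Tgfbr3* (chromosome 5, 107535589 to 107718614), the co-receptor betaglycan, which presents TGF-beta 2 to the type II receptor, had 10.02, 10.1, 10.7 and 11.9 FPKM. No receptor separated the genotypes at either stage by more than a log2 of 0.17 as deposited. At E18.5 the receptors were all above 0 as deposited and all below 0 after centring, with *Tgfbr1* at -0.15, *Tgfbr2* at -0.12 and *Tgfbr3* at -0.14. With the trend subtracted they were above 0 again, at 0.24, 0.14 and 0.08. Within the receptor sum of 58.6 to 65.1 FPKM, *Tgfbr1* gave 39.6% to 42.6%, *Tgfbr2* 40.3% to 42.1% and *Tgfbr3* 17.0% to 18.3%, so their proportions were nearly the same in each library. The ligand sum over the receptor sum was 0.969 and 0.966 at E16.5, and 0.946 in wild type and 0.867 in mutant UGS at E18.5.

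*Smad7* (chromosome 18), which encodes the inhibitory SMAD, had 7.56, 8.51, 5.24 and 7.04 FPKM. The mutant was the higher library at both stages, and E18.5 wild type was the lowest of the 4. Its E18.5 log2 ratio of 0.43 (0.29 to 0.56) became 0.14 after centring, 0.00 with library sums made equal and -0.13 with the trend subtracted.

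Among the matrix genes, *Ctgf* (chromosome 10, 24315248 to 24318489) had 11.8, 13.6, 8.85 and 20.7 FPKM, from about 1712, 1728, 585 and 2467 reads. The E18.5 mutant library was the highest of the 4 and E18.5 wild type the lowest. The E18.5 ratio was 2.335 (log2 1.22, 1.09 to 1.36), and the log2 ratio stayed between 0.80 and 0.96 under the other scalings, with 0.93 after centring and 0.91 with the trend subtracted. Of all genes, 9.42% had a ratio as high as deposited, and 4.73% with the trend subtracted. Over E16.5 wild type in place of E18.5 wild type, the E18.5 mutant still had a log2 ratio of 0.81 (0.72 to 0.90) for *Ctgf*, the 1 of the 10 genes past 1.5-fold in that pair, where 3.06% of 14766 genes were higher, 3.41% lower and 6.47% either by that size. Summed smooth muscle markers, which include *Acta2*, *Myh11* and *Cnn1*, were 1160, 613, 1338 and 3656 FPKM. They were highest in the same library as *Ctgf* but lowest in the E16.5 mutant, where *Ctgf* was not. All 8 were higher in the mutant at E18.5 as deposited, 7 of them past 1.5-fold. In that pair 33.2% of all genes were higher by that size, and the median over all genes was 0.31. With the trend subtracted 7 were higher, 4 past 1.5-fold, and 1 lower, beside 13.1% of all genes higher by that size and 14.7% lower. All 8 were lower in the mutant at E16.5, where *Ctgf* had a log2 ratio of 0.21. None was at 0 in any library, and their part in the *Ctgf* values was not tested.

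*Tgfbi* (chromosome 13, 56710964 to 56740700), which encodes a matrix protein induced by TGF-beta, had 58.5, 55.7, 33.6 and 54.2 FPKM. E18.5 wild type was the lowest of the 4 and the other 3 lay close together. Its E18.5 ratio of 1.61 (log2 0.69, 0.62 to 0.76) was exceeded or equalled by 28.0% of all genes, and its log2 ratio became 0.40 after centring and 0.20 with the trend subtracted, both below 1.5-fold. Over E16.5 wild type, the E18.5 mutant had a log2 ratio of -0.11 for *Tgfbi*, the other sign. *Postn* (chromosome 3, 54165047 to 54194954), known from activated fibroblasts, had 132, 117, 161 and 183 FPKM. The 2 libraries at E18.5 were above the 2 at E16.5, and the genotype difference at E18.5 was 0.18 (0.15 to 0.21) as deposited, -0.10 after centring and 0.05 with the trend subtracted. Summed macrophage markers were 49.2, 58.5, 41.1 and 59.2 FPKM, lowest in E18.5 wild type. *Tgfb1*, *Tgfb3*, *Tgfbr1*, *Smad7*, *Tgfbi* and *Ctgf* were also lowest there as deposited, and *Tgfb2*, *Tgfbr2*, *Tgfbr3* and *Postn* were not. Of the macrophage markers, 5 of 6 were higher in the mutant at E18.5 (4 of 6 under the other scalings) and none was at 0. Summed erythroid markers were 17920, 28860, 5859 and 28490 FPKM, with 5 of 5 higher as deposited, 4 of 5 after centring, and none at 0. Their part in these values was not tested. Over all genes, the median log2 ratio of the E18.5 genotype pair was 0.31 as deposited.

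**Figure D3:**
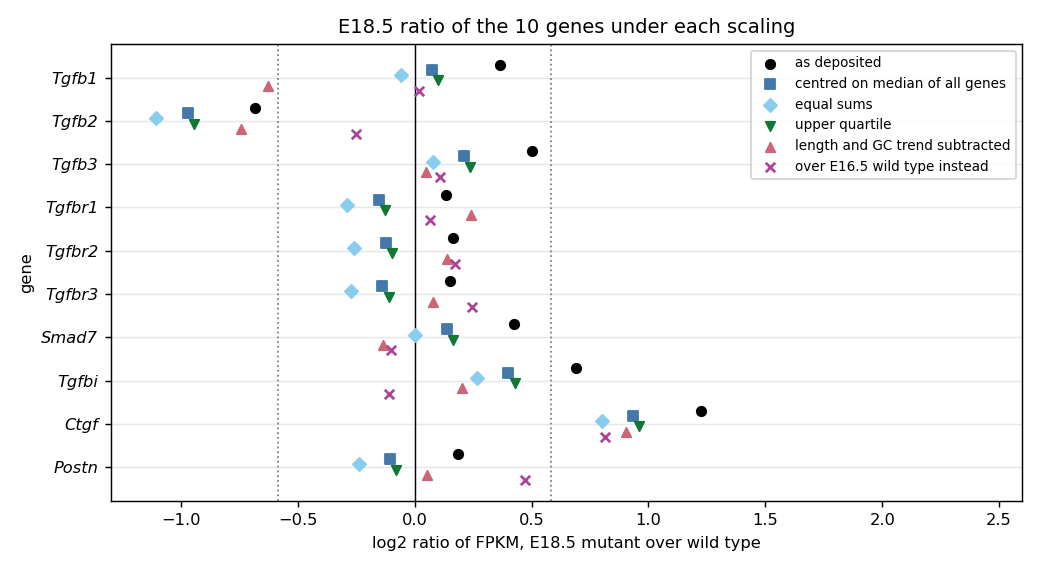
Log2 ratio of FPKM, E18.5 mutant over wild type, of the 10 genes under each scaling and with E16.5 wild type in place of E18.5 wild type. *Ctgf* lies beyond 1.5-fold (dotted lines) in each setting, *Tgfb2* in all but the replacement of the wild type library, and *Tgfb1*, *Smad7*, *Postn*, the receptors and, with that replacement, *Tgfbi* fall on both sides of 0.

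**Figure D4:**
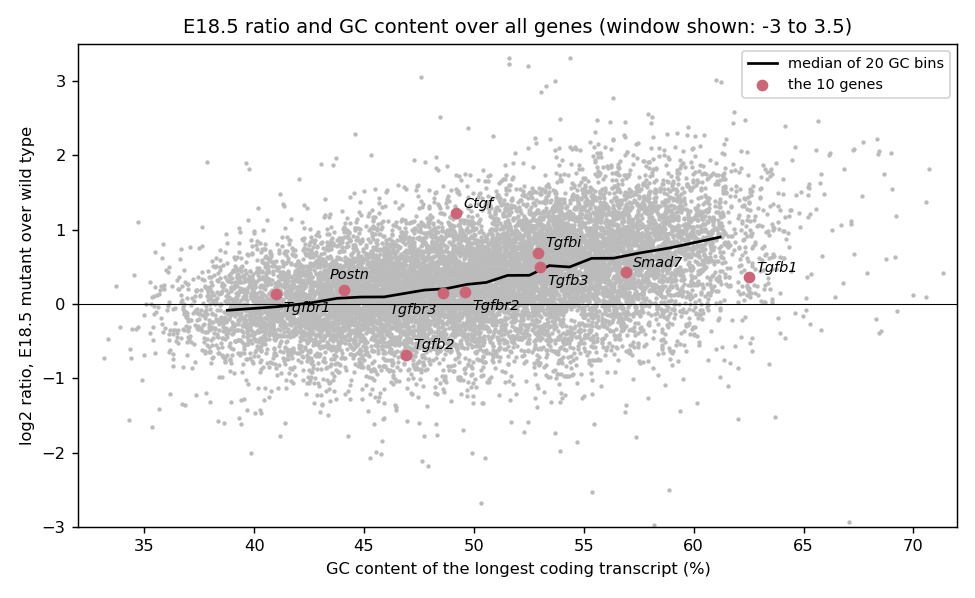
Log2 ratio of FPKM, E18.5 mutant over wild type, against the GC content of the longest coding transcript for all genes (grey) with the median of 20 GC bins (line), which runs from -0.09 in the lowest to 0.90 in the highest bin. The vertical axis is cropped to a log2 ratio of -3 to 3.5. *Tgfb1* lies below the line although its ratio is above 0, *Ctgf* lies above it and *Tgfb2* below it.

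Between the stages, the mutant libraries differed in 2 of the 10 genes by 1.5-fold, *Ctgf* and *Postn*, both higher at E18.5, where 3.0% of 14713 genes were higher by that size, 1.68% lower and 4.68% either. For *Postn* the log2 ratio of E18.5 over E16.5 was 0.65 (0.62 to 0.68), which 2.59% of genes reached or exceeded, and for *Ctgf* it was 0.60 (0.51 to 0.69), reached or exceeded by 2.89%. The E18.5 wild type library is not part of this pair, and the median over all genes was -0.06. *Tgfb2* was lower at E18.5 by a log2 of -0.23 (-0.29 to -0.18) in the mutant, and the other 7 genes had log2 ratios of -0.27 (*Smad7*) to 0.23 (*Tgfbr3*). In wild type, only *Tgfbi* passed 1.5-fold as deposited, lower at E18.5 with a log2 ratio of -0.80 (-0.86 to -0.74), where 35.9% of 14807 genes were lower by that size, 6.8% higher and 42.7% either. *Tgfbi* was under 1.5-fold under the 4 other scalings, with -0.47 after centring and -0.27 with the trend subtracted. *Tgfb2* had a wild type log2 ratio of 0.43 (0.37 to 0.49), which became 0.76 after centring and 0.56 with the trend subtracted. *Postn* had 0.29, which became 0.62 and 0.42. After centring *Tgfb2* and *Postn* were thus past 1.5-fold upwards, as were 15.92% of all genes. With equal sums (14.43% of all genes) or the upper quartile (14.52%) *Tgfb2* alone was. With the trend subtracted *Tgfb1* alone was (0.76, against -0.35 as deposited), beside 14.04% of all genes. The values of *Ctgf* are side by side -0.41 (-0.55 to -0.27, and -0.08 after centring) in wild type and 0.60 in the mutant, and of *Tgfb2* 0.43 and -0.23. The comparisons of stage and genotype share libraries, so these values are not independent of those above.

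For the 3 genes with the widest range over the libraries, the genes with the most similar pattern were sought by the Euclidean distance between log2 FPKM profiles, each centred on its own mean, over 4 libraries and 8612 genes with at least 5 FPKM in every library. For *Ctgf* these were *Crip1* (distance 0.0802), *Stbd1* (0.114) and *Htra1* (0.137), and 10 genes lay within 0.2. *Crip1* had 52.0, 57.9, 40.7 and 92.2 FPKM. For *Tgfbi* the nearest were *Pink1*, *Fbxo25* and *Csdc2*, with 1203 genes within 0.2, and for *Smad7* *Vgll4*, *Fam171a1* and LOC100502826, with 934. A fixed distance tends to hold fewer genes for a wider pattern, and that of *Ctgf* is the widest, so these counts are not compared between the 3 genes. E18.5 wild type, the lowest library for *Tgfbi* and *Smad7*, had a median log2 ratio to E16.5 wild type of -0.33 over all genes.

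Beyond the 10 genes, the pathway was described by lists of genes for latency and activation, receptors and SMAD transduction, inhibitors, response genes and myofibroblast markers, 142 genes of which were in the matrix. At E16.5 (137 with at least 1 FPKM), 5 were lower in the mutant by 1.5-fold, where 2.72% of all genes were lower and 1.44% higher. All of the 5 lower genes were on the list of myofibroblast markers, the contractile genes *Acta2*, *Tagln*, *Des*, *Cnn1* and *Tpm2*. Of these, *Acta2*, *Tagln*, *Des* and *Cnn1* are also among the 8 smooth muscle markers. Every smooth muscle marker, and every skeletal muscle marker that reached 1 FPKM, was lower in the mutant in this pair. Their part in these values was not tested. The list medians ran from -0.12 (myofibroblast markers) to 0.07 (latency and activation), beside 0.01 over all genes tested.

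At E18.5 (138 genes), 46 were higher and 6 lower by 1.5-fold, beside 33.2% and 7.6% of all genes, and the median over the lists was 0.33 beside 0.31 over all genes. After centring, 27 were higher and 22 lower, beside 19.7% and 16.03% of all genes, and with the trend subtracted 22 and 15, beside 13.1% and 14.7%. Of 17 receptor and SMAD genes, 2 were higher and 2 lower as deposited, and 0 and 3 after centring. *Smad2*, *Smad3* and *Smad4*, the transducers, had log2 ratios of -0.06, 0.02 and -0.03 as deposited and -0.35, -0.27 and -0.32 after centring. *Crebbp*, a coactivator that SMADs recruit, had 13.9, 13.0, 20.8 and 10.6 FPKM, and *Dab2*, an adaptor of endocytosis, had 24.1, 25.8, 45.6 and 25.5 FPKM. Both were highest in E18.5 wild type. Of 25 latency and activation genes 8 were higher and none was lower as deposited (33.2% and 7.6% of all genes), and after centring 5 were higher and 3 lower (19.7% and 16.03%). The 8 were *Ltbp2*, *Ltbp4*, *Lrrc33*, *Furin*, *Itgb5*, *Thbs2*, *Emilin1* and *Htra1*. With the trend subtracted 4 of the 25 were higher, *Ltbp2*, *Lrrc33*, *Thbs2* and *Emilin1*, and 3 were lower (13.1% and 14.7% of all genes). The list median, 0.53 as deposited, was then 0.03. *Ltbp2*, a latent TGF-beta binding protein, had 2.56, 2.76, 1.27 and 3.63 FPKM, from about 241 reads in E18.5 wild type, and *Emilin1*, which encodes an inhibitor of ligand processing, had 66.1, 71.5, 20.3 and 64.2 FPKM. For both genes the E18.5 wild type library was the lowest. *Bgn*, the matrix proteoglycan biglycan, had 189.5, 224, 383 and 271 FPKM, highest in E18.5 wild type. *Ltbp1* and *Ltbp3* did not pass 1.5-fold (0.21 and 0.49), and *Ltbp4* did, with 0.67 that became -0.08 with the trend subtracted. Of 16 inhibitors 3 were higher, *Smad6*, *Smurf1* and *Lemd3*, and none lower as deposited, and after centring 1 was higher and 4 lower.

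Of 43 response genes 19 were higher and 2 lower by 1.5-fold at E18.5 (33.2% and 7.6% of all genes), and 13 and 6 after centring (19.7% and 16.03%). *Id3*, an inhibitor of differentiation and a target of the BMP branch, had 149, 198, 40.5 and 160 FPKM, lowest in E18.5 wild type. *Scx*, a tendon transcription factor, had a log2 ratio of 1.75 (0.63 with the trend subtracted) from 1.23 FPKM and about 29 reads in E18.5 wild type. *Has2*, a hyaluronan synthase, had 7.90, 11.3, 7.59 and 10.8 FPKM and was higher in the mutant at both stages, though under 1.5-fold. The lower genes were *Snai2* (-0.98, and -1.27 after centring) and *Zeb2*, transcription factors of mesenchymal identity. *Fn1* (0.27), *Tnc* (0.12) and *Vim* (0.23), for the fibroblast proteins fibronectin, tenascin and vimentin, did not pass 1.5-fold, and after centring they were at -0.01, -0.17 and -0.06.

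Of 45 myofibroblast markers 16 were higher and 2 lower at E18.5 (33.2% and 7.6% of all genes), and after centring 10 and 6 (19.7% and 16.03%). Of the 46 listed, 4 (*Acta2*, *Cnn1*, *Des* and *Tagln*) are also among the 8 smooth muscle markers, whose values stand beside those of *Ctgf*. *Acta2*, smooth muscle actin, had 597, 381, 698 and 1526 FPKM. *Tagln*, a calponin relative, had 107, 55.6, 93.4 and 401 FPKM. *Cnn1*, calponin, had 53.8, 21.1, 53.3 and 178 FPKM. These 3 genes were lower in the mutant at E16.5 and higher at E18.5, under each scaling. *Thy1*, a marker of fibroblasts, went the other way, with 19.9, 28.9, 46.6 and 21.8 FPKM. Summed skeletal muscle markers were 514.5, 203, 304.9 and 640.7 FPKM. All 7 of them that reached 1 FPKM were lower in the mutant at E16.5, and at E18.5 2 were higher and 5 lower. None of the 8 listed was at 0, and their part in these values was not tested. In the mutant between stages, 18 of 138 list genes were higher by 1.5-fold at E18.5 and none lower, beside 3.0% and 1.68% of all genes, 11 of them myofibroblast markers and 5 response genes. In wild type between stages 10 were higher and 31 lower, beside 6.8% and 35.9% of all genes.

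**Figure D5:**
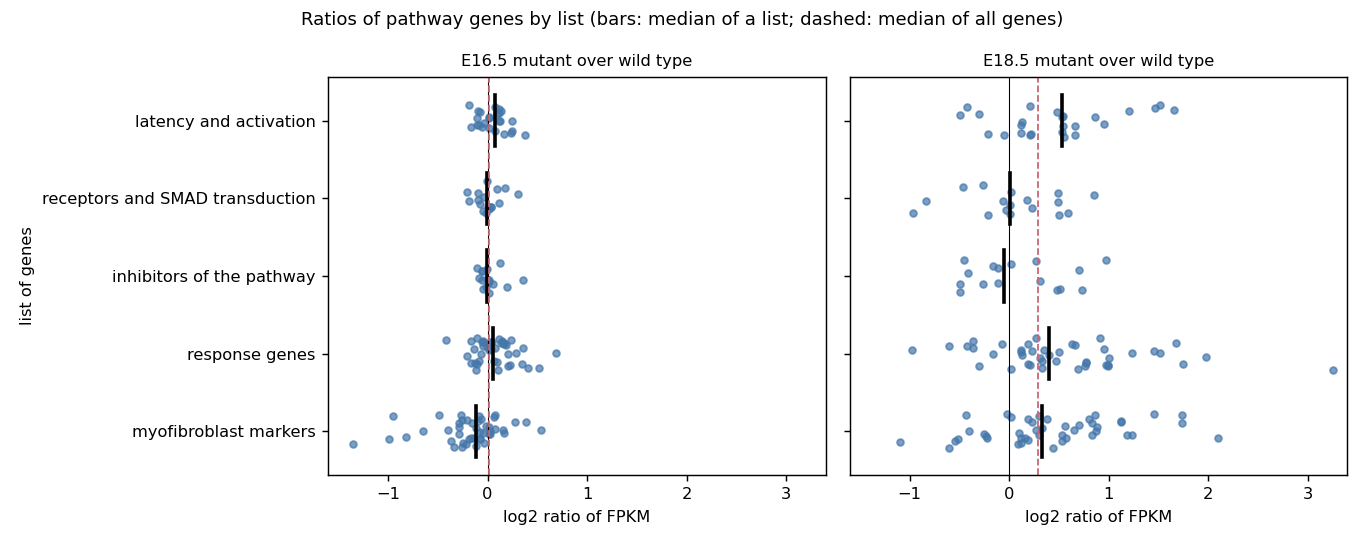
Log2 ratios of the genes in the 5 lists of TGF-beta pathway and myofibroblast genes in the genotype pairs at E16.5 and E18.5, 1 point per gene. At E16.5 the list medians (bars) lie at -0.12 to 0.07, and at E18.5 at 0.53 for latency and activation, 0.40 for response genes, 0.33 for myofibroblast markers, 0.01 for receptors and SMAD genes and -0.05 for inhibitors, around the median of all genes (dashed). Ratios are as deposited. With the length and GC trend subtracted, the E18.5 median for latency and activation was 0.03, beside 0.01 over all genes tested.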

How the data were processed

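The 4 RNA-Seq libraries each held RNA of 3 male embryos, pooled from the whole UGS. The authors made a stranded mRNA library for each, called bases with CASAVA 1.8.2, trimmed single-end reads with Trimmomatic 0.30, aligned them with TopHat2 2.1.0 at default options, which do not use the strand, and estimated FPKM with Cufflinks 2.2.1, per the submitters' processing notes and the study's methods. The deposited FPKM values were used as they stand. The genome build is not given in the sources used here. Gene positions follow the deposited loci, counted from 1, and differ from GRCm38, whose RefSeq windows gave the promoters.

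Ratios had no pseudocount and were taken for genes that reached 1 FPKM in at least 1 library of the pair, and 1.5-fold was the threshold (2-fold beside it). With 1 library per group no test was made. Depth was estimated from single reads on 17 to 28 olfactory receptor genes per library. Intervals are 95% and exact binomial on the estimated reads of a pair, and by the normal approximation for a ratio within a library. They cover counting error only and treat reads as independent molecules, which reads are not, so they may be too narrow. Length and GC content were known for 23078 rows (93.7% of rows at 1 FPKM or more), and a lowess trend (span 0.3) on length and then GC was subtracted in 1 alternative. Also tried were equal library sums, centring on the median over all genes, upper quartile scaling (75th percentile), no filter or 5 FPKM, and pseudocounts of 0.1 or 1. The replacement of E18.5 wild type by E16.5 wild type was chosen after seeing the data. The 10 genes and the lists were chosen with earlier results of these data known. Genes named beyond the 10 are *Smad2*, *Smad3*, *Smad4*, the *Ltbp* genes, *Acta2*, *Vim*, *Fn1* and *Tnc* and, in each comparison, the 3 list genes with the highest and the 3 with the lowest ratio provided that the higher library had 5 FPKM and the lower 1 FPKM. Another gene of this rule is not reported here. Other list genes, *Zeb2* among them, are named after their values were seen. Scripts were tested on simulated data and used matplotlib 3.10.9, statsmodels 0.14.6, scipy 1.17.1, pandas 2.3.3 and numpy 2.4.6 in Python 3.11.15.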

Additional observations from a re-analysis of the deposited data

Results flagged for a closer look

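A gene is given here where its ratio takes opposite signs between the stages or between the genotypes, with both ratios at least 0.2 on the log2 scale, at least 1 of them past 1.5-fold, and counting intervals that exclude 0. With 1 library per group the difference was not tested.

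As deposited, only *Ctgf* of the 10 genes met this. Its E18.5 over E16.5 log2 ratios were -0.41 in wild type and 0.60 in the mutant. The wild type ratio was -0.08 after centring on the median over all genes and -0.12 with equal library sums. It was -0.11 with the upper quartile and -0.06 with the trend subtracted, so *Ctgf* fell short of 0.2 under each other scaling. *Tgfb2* met the sign and size parts of the rule with equal sums (0.72 in wild type, -0.26 in the mutant). It also did so with the upper quartile (0.73 and -0.20). Of the listed genes, whose ratios are as deposited unless stated, *Ltbp2* had -1.01 in wild type and 0.39 in the mutant between stages. *Snai2* had 0.79 in wild type and -0.33 in the mutant. *Thy1* had 1.225 in wild type and -0.41 in the mutant between stages, and mutant over wild type ratios of 0.54 at E16.5 and -1.099 at E18.5. *Tagln* had -0.20 in wild type (0.13 after centring, the other sign) and 2.85 in the mutant between stages, and mutant over wild type ratios of -0.95 at E16.5 and 2.104 at E18.5. *Acta2* had mutant over wild type ratios of -0.65 at E16.5 and 1.13 at E18.5, *Cnn1* -1.35 and 1.74, and *Tpm2* -0.99 and 0.66.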

How the results depend on the processing

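No paired analysis was possible because each genotype and stage had 1 library and no replicate numbers. For the same reason nothing was left out within a group.

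The call of *Ctgf* at E18.5 held under each setting tried, and that of *Tgfb2* under all but the use of E16.5 wild type in place of E18.5 wild type. That replacement moved the number of the 10 genes past 1.5-fold from 3 to 1, the median log2 ratio from 0.27 to 0.0877, and *Tgfbi* from 0.69 to -0.11. The E18.5 median was -0.15 with equal library sums, -0.0152 after centring on the median over all genes, 0.0115 with the upper quartile and 0.0667 with the trend subtracted. *Tgfbi* was under 1.5-fold in these 4 settings, and *Tgfb1* passed it downwards with the trend subtracted (-0.63). Over all genes the E18.5 split was 33.2% higher and 7.6% lower as deposited, 19.7% and 16.03% after centring, and 13.1% and 14.7% with the trend subtracted. The E16.5 median was -0.11 with equal sums. In wild type between stages the median (-0.21 as deposited) was 0.0850 with equal sums, 0.12 after centring, 0.0877 with the upper quartile and 0.15 with the trend subtracted, and 2 genes (*Tgfb2* and *Postn*, upwards) in place of 1 (*Tgfbi*, downwards) passed 1.5-fold after centring. After centring, 15.92% of all genes were higher and 19.75% lower by that size in that pair. In the mutant the count of 2 became 1 with equal sums and 1 with a pseudocount of 1, and the median (0.07) was 0.13 after centring and 0.14 with the trend subtracted. Of the 40 ratios of the 10 genes, 8 took the other sign with equal sums, 7 after centring, 5 with the upper quartile and 8 with the trend subtracted, and 0 with another filter or pseudocount.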

Other observations

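Other CCN genes, which encode matricellular relatives of *Ctgf* and were picked after their values were seen, also had their highest level in the E18.5 mutant library as deposited. *Cyr61* had 12.7, 15.5, 12.1 and 23.4 FPKM in wild type and mutant at E16.5, then wild type and mutant at E18.5, and the log2 ratio of E18.5 over E16.5 in the mutant was 0.60. *Nov* had 21.5, 24.5, 16.9 and 34.1 FPKM, with E18.5 mutant over wild type at a log2 of 1.01 as deposited. In that pair 33.2% of all genes were higher by 1.5-fold and 15.1% by 2-fold, with a median log2 ratio of 0.31. *Wisp1* had 12.2, 14.1, 8.99 and 14.3 FPKM and a log2 ratio of 0.02 between the 2 mutant libraries. *Wisp2* stayed at or below 1.05 FPKM, with about 5 reads in E18.5 wild type. As deposited, E18.5 wild type was the lowest library for each of these genes, and its median log2 ratio to E16.5 wild type over all genes was -0.33. For *Cyr61* its log2 ratio to E16.5 wild type was -0.07 as deposited and 0.26 after centring on the median over all genes.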
